A study of Homo sapiens with 6 samples.

Results

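HBP1, CREBRF, TSC22D3, the pocket proteins RBL1 and RBL2 and the BTG/TOB family are grouped here as antiproliferative or growth-restraining regulators. Their RNA was measured in RL cells, an established human B-cell lymphoma line with the t(14;18) translocation. HBP1 and CREBRF were selected on their log2 differences between LY317615 and untreated arrays, being among the largest falls, and the other 8 genes by name with that comparison already known. Of the 10 genes, 9 were measured, among 18417 genes in all, each by 1 probe set (a group of array probes read as one). No probe set was named for BTG2, which was not analysed here. Total RNA was hybridised to Affymetrix Gene 1.0 ST arrays from 3 untreated samples and from 3 given LY317615, all at 48 h. LY317615 (enzastaurin) is a small molecule made to inhibit the beta isoform of protein kinase C. The labels give its dose as 2.5 mM, a unit that could not be checked here, and name no vehicle for the untreated cells. Every group was the same cell line, and nothing in the labels says that the replicates came from separate cultures, so errors and p-values cover array-to-array spread, part of which may be technical.

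Members of this set act at different steps. HBP1 is an HMG-box transcriptional repressor of cell-cycle genes that can bind pocket proteins. The pocket proteins RBL1 and RBL2 hold E2F factors in a repressing state, and in resting cells they do so within the DREAM complex. BTG and TOB proteins share an N-terminal domain that binds the CCR4-NOT deadenylase, which shortens the poly(A) tails of messenger RNAs, and they are abundant in resting lymphocytes. TSC22D3 encodes GILZ, a leucine-zipper protein induced by glucocorticoids, and CREBRF encodes a factor that promotes the loss of the transcription factor CREB3.

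The sequences just upstream of 4 members are shown because they hold 1 of 8 short motifs that were searched, the FOXO heptamer GTAAACA or the E-box CACGTG. They come from RefSeq (GRCh38.p14), are the 250 bases before a transcript start on the gene's own strand, and read 5′ to 3′. For HBP1 (chr7:107168753-107169002, + strand) capitals mark the FOXO heptamer and 3 CCAAT pentamers. For TSC22D3 (chrX:107717063-107717312, - strand, 1 of 4 listed starts) and BTG1 (chr12:92145847-92146096, - strand) they mark the FOXO heptamer, which lies there as its reverse complement. For CREBRF (chr5:173056102-173056351, + strand) they mark 2 E-boxes.
HBP1: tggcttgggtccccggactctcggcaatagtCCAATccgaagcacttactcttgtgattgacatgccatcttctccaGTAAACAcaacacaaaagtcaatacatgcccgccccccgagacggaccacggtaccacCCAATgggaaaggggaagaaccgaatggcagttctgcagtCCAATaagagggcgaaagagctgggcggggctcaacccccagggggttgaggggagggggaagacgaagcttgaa
TSC22D3: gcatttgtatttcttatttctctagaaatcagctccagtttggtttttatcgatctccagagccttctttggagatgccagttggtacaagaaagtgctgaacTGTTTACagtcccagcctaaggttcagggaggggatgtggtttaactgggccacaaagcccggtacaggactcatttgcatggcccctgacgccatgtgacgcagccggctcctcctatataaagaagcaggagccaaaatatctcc
BTG1: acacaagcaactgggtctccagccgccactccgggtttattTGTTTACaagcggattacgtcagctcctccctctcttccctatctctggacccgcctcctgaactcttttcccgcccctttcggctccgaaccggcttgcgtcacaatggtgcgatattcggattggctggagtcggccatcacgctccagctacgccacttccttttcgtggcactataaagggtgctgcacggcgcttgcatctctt
CREBRF: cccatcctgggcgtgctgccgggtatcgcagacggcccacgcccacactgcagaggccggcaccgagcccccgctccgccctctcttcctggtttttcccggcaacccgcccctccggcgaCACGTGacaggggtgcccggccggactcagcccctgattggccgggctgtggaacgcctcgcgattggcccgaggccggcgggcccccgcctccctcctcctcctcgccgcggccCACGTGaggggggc

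The FOXO heptamer was present upstream of 3 of 9 members, and 3.66% of all 27305 genes in the table had it upstream of at least 1 start. It began 173 bases before the HBP1 start, 147 before that TSC22D3 start and 209 before the BTG1 start. The second listed HBP1 start and the other TSC22D3 starts lacked it. The E-box lay upstream of CREBRF alone among the members, against 7.73% of all genes, and began 129 and 14 bases before the start. The cAMP response element TGACGTCA was upstream of 0 of 9 members (2.03% of all genes). Of the E2F motifs, TTTGGCGC was found at RBL1 (0.681% of all genes), beginning 16 bases before its start, and TTTCCCGC at BTG1 (1.70%), where it overlaps a GGGCGG match. The commoner CCAAT was upstream of 5 members (37.0% of all genes), GGGCGG of 7 (46.2%) and TATAAA of 2, TSC22D3 and BTG1 (13.0%). Both strands were searched throughout. A match is a run of letters and not a measured binding site, and genes differ in how many starts are listed.

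After LY317615, all 9 measured genes had a mean below that of untreated cells, with log2 differences from -2.26 to -0.09. The differences lay in 3 ranges. HBP1, CREBRF and TSC22D3 were beyond -1, TOB1, RBL2, BTG1 and BTG3 lay between -0.62 and -0.26, and RBL1 and TOB2 were at -0.09. The treated and untreated arrays did not overlap in 7 of 9 genes, treated being lower, as in 27.8% of all genes. In limma with Benjamini-Hochberg adjustment over all genes, 6 of 9 had an adjusted p under 0.05, all lower, against 21.4% of all genes lower and 35.7% called in either direction. Since the set was chosen with this comparison in view, nothing is read from these counts, and the values of its members are given as a description with no test. Less RNA per cell and fewer cells that hold it cannot be told apart in bulk RNA.

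**Figure D1:**
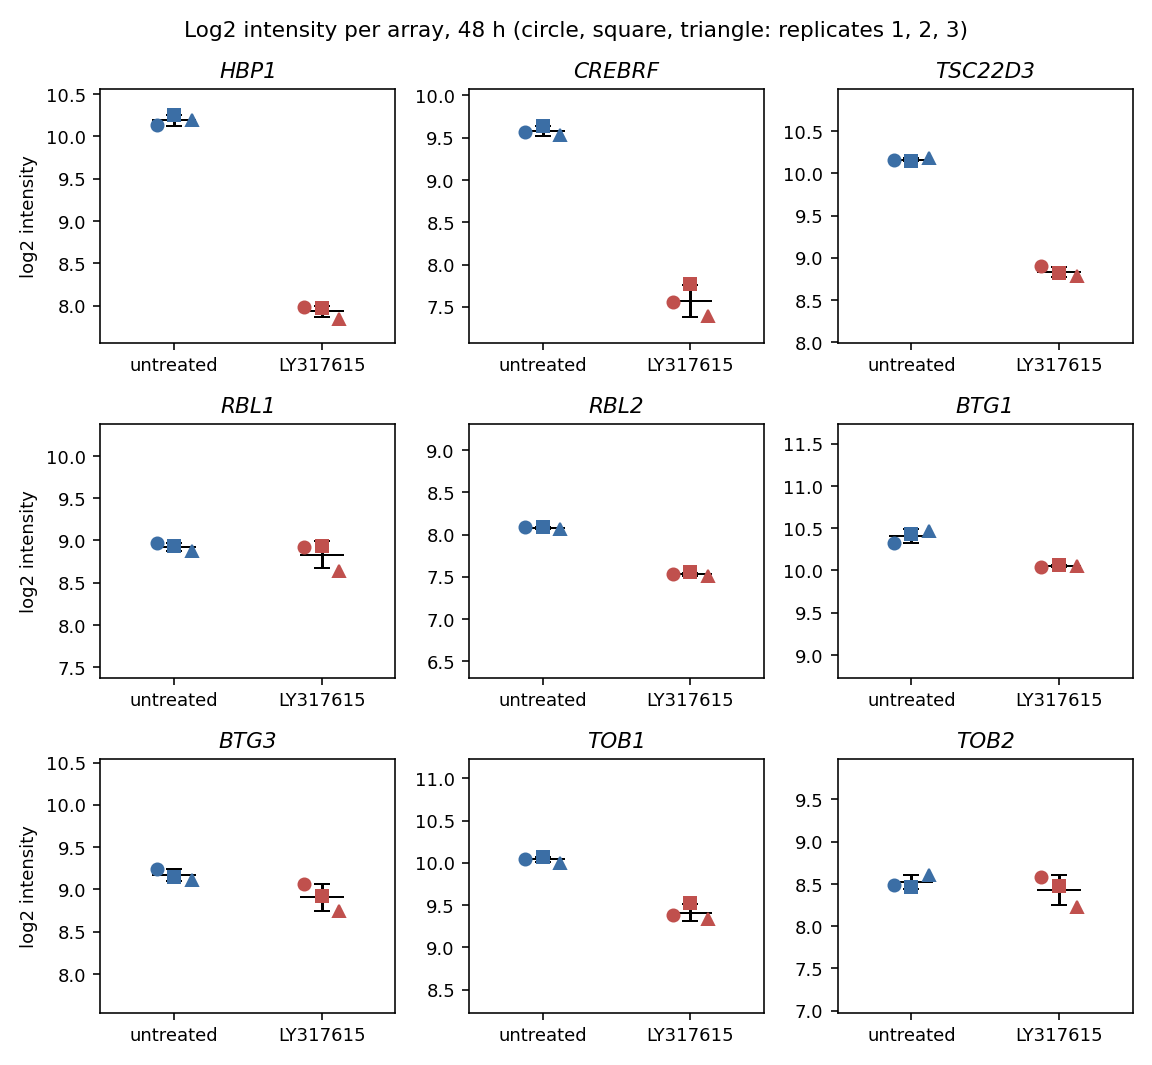
Log2 intensity of the 9 measured genes on each of 6 arrays (blue, untreated; red, LY317615; circle, square and triangle are replicates 1, 2 and 3), with group means and SDs as bars; every panel spans 3 log2 units. The groups are far apart for HBP1, CREBRF and TSC22D3, and overlap for RBL1 and TOB2.

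HBP1 (probe set 8135392) had intensities of 1126, 1215 and 1173 in untreated replicates 1 to 3 and of 251.8, 250.3 and 229.8 in treated replicates 1 to 3. Every treated array was thus far below every untreated one, with a gap of 2.16 log2 units between the nearest arrays. The mean log2 intensity went from 10.19 ± 0.06 without to 7.93 ± 0.07 with the compound (SD, n = 3 each), a difference of -2.26 ± 0.08 (SE) that left 20.8% of the untreated level. It was the 4th largest fall of 18417 genes, after NR1D2, HCAR3 and SPX (-2.63, -2.54 and -2.28) and before CCDC28A (-2.10). HCAR3 probes may also read its near-identical neighbour HCAR2.

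CREBRF (probe set 8110032) read 758.3, 796.4 and 738.4 in untreated cells and 188.5, 219.0 and 167.4 in treated cells. The groups were 1.75 log2 units apart at their nearest arrays. Its log2 mean went from 9.58 ± 0.06 to 7.57 ± 0.19 (SD, n = 3 each), a difference of -2.0 ± 0.10 (SE), or 24.9% of the untreated level. The treated arrays of CREBRF were the most spread of the set, replicate 2 being highest and replicate 3 lowest. CREBRF was the 9th largest fall, with SLAMF7 (-2.06) just above it and SERPINF1 (-1.93) just below.

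TSC22D3 (probe set 8174361), the gene of GILZ, had untreated intensities of 1142, 1126 and 1162 and treated intensities of 478.0, 451.3 and 440.0. Both groups were tight and their nearest arrays were 1.24 log2 units apart. Log2 means were 10.16 ± 0.02 and 8.83 ± 0.06 (SD, n = 3 each), a difference of -1.33 ± 0.07 (SE), or 39.9% of the untreated level. It held place 69 among the falls. One probe set stands for all TSC22D3 transcripts here, so the 4 listed starts cannot be told apart.

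**Figure D2:**
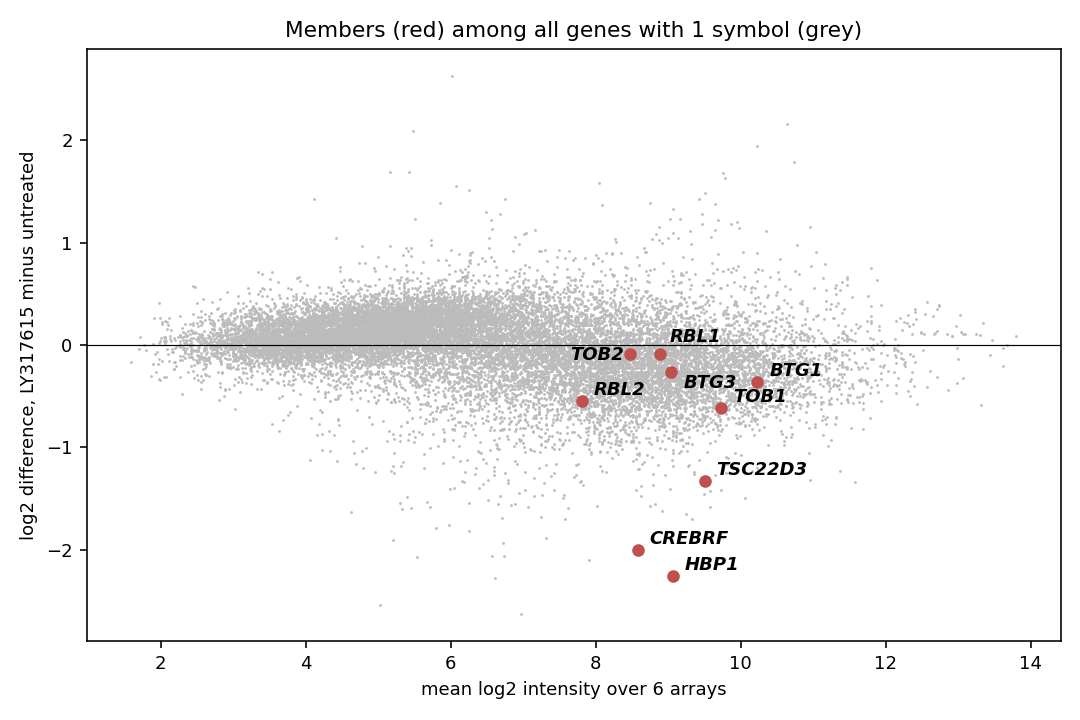
Each point is 1 of 18417 genes, by mean log2 intensity over 6 arrays (horizontal) and log2 difference, LY317615 minus untreated (vertical); the 9 measured members are red. HBP1 (-2.26) and CREBRF (-2.0) lie at the lower edge of genes of their intensity, while RBL1, TOB2 and BTG3 lie within the bulk.

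Of the pocket proteins, RBL2 was the lower after treatment, though the difference between it and RBL1 was not tested. RBL2 (probe set 7995631) read 271.6, 273.1 and 268.7 in untreated and 185.3, 188.7 and 182.4 in treated cells, with no overlap. Its log2 difference was -0.55 ± 0.07 (SE), from 8.08 ± 0.01 to 7.53 ± 0.02 (SD, n = 3 each), or 68.4% of the untreated level. RBL1 (probe set 8066136) read 501.0, 489.5 and 467.1 in untreated and 485.6, 487.4 and 399.1 in treated cells. Treated replicates 1 and 2 of RBL1 lay inside the untreated range and replicate 3 alone lay below it. The RBL1 difference was -0.09 ± 0.10 (SE), and it was 0.00 without treated replicate 3.

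Within the BTG/TOB family the 4 measured genes of the set ranged from -0.62 to -0.09, and BTG4, which is outside the set, is given further below. TOB1 (probe set 8016739) had the largest difference, with intensities of 1053, 1074 and 1026 in untreated and 667.8, 734.5 and 646.7 in treated cells. Its log2 mean went from 10.04 ± 0.03 to 9.41 ± 0.10 (SD, n = 3 each), a difference of -0.62 ± 0.08 (SE), or 64.9% of the untreated level. The close relative TOB2 (probe set 8076331) read 360.5, 351.3 and 388.7 in untreated and 381.5, 355.9 and 300.8 in treated cells. Its groups overlapped, and its difference of -0.09 ± 0.10 (SE) became 0.01 without treated replicate 3.

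BTG1, a gene often mutated in B-cell lymphoma (probe set 7965423), read 1274, 1381 and 1421 in untreated and 1053, 1070 and 1058 in treated cells. The treated arrays agreed closely and all lay below the untreated ones. The log2 mean went from 10.41 ± 0.08 to 10.05 ± 0.01 (SD, n = 3 each), a difference of -0.36 ± 0.07 (SE), or 78.1% of the untreated level. BTG3 (probe set 8069565) read 606.3, 567.4 and 553.5 in untreated and 535.0, 483.8 and 431.4 in treated cells. The groups just missed overlapping, with a gap of 0.05, and the difference was -0.26 ± 0.09 (SE).

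Bright genes as a whole were lower after treatment, and all 9 members are bright. HBP1, TSC22D3, RBL1, BTG1, BTG3 and TOB1 lie in the brightest of 5 equal bins of genes, whose median log2 difference was -0.21, and CREBRF, RBL2 and TOB2 in the next bin, whose median was -0.14. Set against the median of its bin, HBP1 was at -2.05, CREBRF at -1.87 and TSC22D3 at -1.11. RBL2 and TOB1 were both at -0.41 and BTG1 was at -0.14. BTG3, TOB2 and RBL1 were at -0.04, 0.05 and 0.12, near the level of other bright genes.

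Treated replicate 3 stood apart from the other arrays. Its limma array weight was 0.376, against 1.04 to 1.51 for the other 5, and its median intensity of 61.45 was the highest of 56.75 to 61.45. It was the lowest treated array for 8 of 9 members, BTG1 being the exception, as it was for 41.7% of all genes and for 67.5% of genes called lower. Without it HBP1 differed by -2.22, CREBRF by -1.91, TSC22D3 by -1.30, TOB1 by -0.59, RBL2 by -0.54, BTG1 by -0.35 and BTG3 by -0.18. Cyclic loess, a scaling that removes trends with intensity, gave -2.11 for HBP1, -1.85 for CREBRF, -1.18 for TSC22D3, -0.48 for TOB1, -0.45 for RBL2, -0.23 for BTG1 and -0.10 for BTG3. It turned the sign of RBL1 and TOB2, which were both at 0.06.

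**Figure D3:**
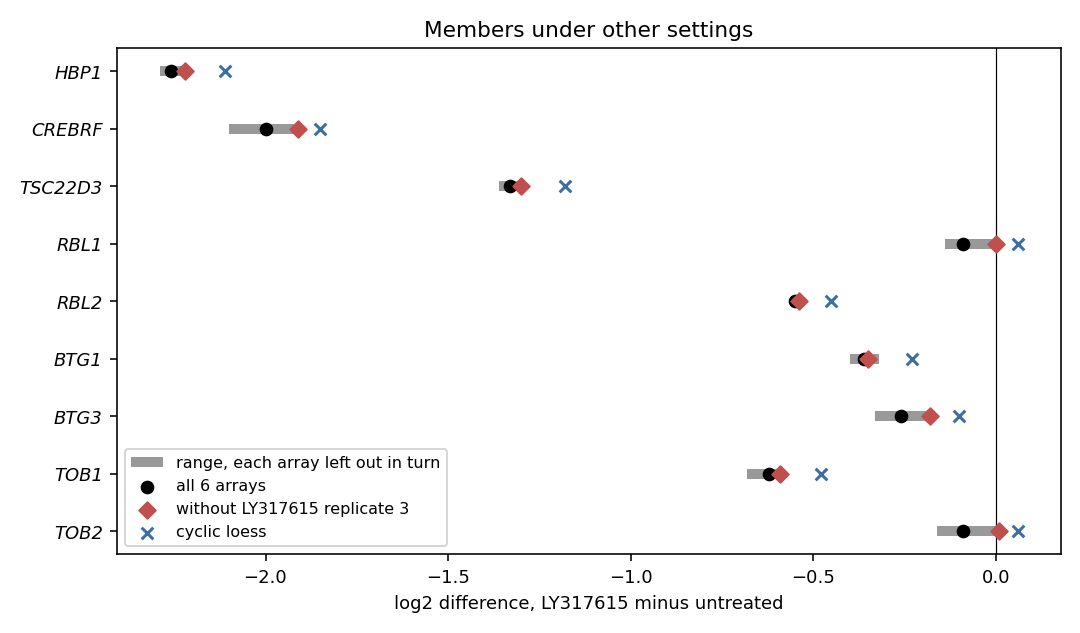
Log2 difference, LY317615 minus untreated, of each member with all 6 arrays (black), over the range when each array is left out in turn (grey), without treated replicate 3 (red) and after cyclic loess (blue). HBP1, CREBRF and TSC22D3 stay below -1 throughout, and RBL1 and TOB2 reach or pass 0.

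The genes nearest in pattern to HBP1 and CREBRF over the 6 arrays were other large falls. Likeness was the root mean square distance between log2 profiles, each centred on its own mean, so it takes in size as well as shape and mainly follows the treatment difference. Nearest to HBP1 were CCDC28A (distance 0.140, difference -2.10), FBXO32 (0.149, -2.06), SPX (0.197, -2.28), SLAMF7 (0.197, -2.06) and LRRC31 (0.199, -1.91). FBXO32 encodes a ubiquitin ligase subunit, and SLAMF7 a lymphocyte surface receptor. Nearest to CREBRF were LRRC31 (0.081), FBXO32 (0.132), CCDC28A (0.159), GLRA3 (0.165, -1.82) and KMO (0.179, -1.76). CCDC28A, FBXO32 and LRRC31 were among the nearest 5 of both. Few genes fell as far as HBP1 and CREBRF, which made such sharing likely beforehand, so nothing is read from it.

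Genes that work with the members were tested in the same limma fit, where calls mean an adjusted p under 0.05 over all genes. In it 2622 genes rose and 3946 fell, 60.1% of the calls being lower, and 76.1% with the array medians set equal. The median log2 difference of all genes was 0.02. Like the members, the 8 lists were drawn up with earlier results of these data known. Most of their genes are bright, so each list's median is also given after the median of each gene's intensity bin is subtracted. The counts of calls were not set against bright genes alone, so nothing is read from their size.

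Among components of the E2F and DREAM machinery in which RBL1 and RBL2 act, 10 of 18 fell and 1 rose, with a median of -0.37, or -0.16 with bin medians subtracted. TFDP2, a dimerisation partner of E2F factors, went from 7.96 ± 0.11 to 6.62 ± 0.02 (SD, n = 3 each), a log2 difference of -1.35 ± 0.08 (SE, adjusted p = 2.04e-05, limma). The DREAM subunit genes LIN37 and LIN9 fell (-0.93 and -0.68), as did the repressive E2F5 (-0.58). Of the other genes, named after their values were seen, LIN54, LIN52, E2F4 and RBBP4 also passed (-0.63, -0.56, -0.47 and -0.39). So did E2F2 and TFDP1 (-0.40 and -0.36), calls lost after cyclic loess and when some single arrays were left out. RB1, the third pocket protein, was 1 of 7 that did not pass, at -0.08 ± 0.09 (SE, limma adjusted p = 0.512). E2F1 was another, at 0.05 ± 0.08. E2F7, also named afterwards, was the gene that rose (0.54), a call lost when any 1 of untreated replicates 1 and 3 and treated replicates 1 and 2 was left out.

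Of 23 E2F and DREAM target genes, 10 fell and 1 rose, with a median of -0.24 that became -0.09 after cyclic loess and -0.03 with bin medians subtracted. The replicative helicase genes MCM5, MCM6, MCM2 and MCM7 fell, with log2 differences of -1.04, -0.98, -0.82 and -0.66. TYMS, the thymidylate synthase gene, rose by 0.47. TYMS and the proliferation markers named next were chosen after their values were seen. The mitotic and cell-cycle genes PLK1 (-0.72), CDC25A (-0.46), CCNB2 (-0.39), BUB1 (-0.34) and CDK1 (-0.28) fell, the calls of CDC25A, BUB1 and CDK1 being lost after cyclic loess and when some single arrays were left out. MKI67 was at -0.24 (limma adjusted p = 0.0800), CCNB1 at 0.19, TOP2A at 0.11, PCNA at -0.10 and CCNA2 at -0.06, and these did not pass. Nor did CCNE2 (0.18), CDC6 (0.17), CCNE1 (0.03), AURKB (-0.07), AURKA (-0.10), RRM2 (-0.19) and MCM3 (-0.29), so that 12 of 23 were not called. Without treated replicate 3, 8 of the 23 genes fell and 3 rose.

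Of 21 measured deadenylase genes and other partners of BTG and TOB proteins, 10 fell and 0 rose in limma. The median was -0.20, which is near that of bright genes in general: it was -0.06 with bin medians subtracted and -0.12 after cyclic loess. At an unadjusted p under 0.05 the counts were 12 lower and 1 higher. PRMT1, a methyltransferase that binds BTG proteins, went from 10.04 ± 0.04 to 9.28 ± 0.06 (SD, n = 3 each), a difference of -0.77 ± 0.07 (SE, adjusted p = 0.000139, limma). CPEB3 and CPEB4, RNA-binding proteins of the polyadenylation machinery, fell (-0.98 and -0.43), and so did the CCR4-NOT subunit gene CNOT2 (-0.56). The catalytic subunits that bind the BTG domain were named after their values were seen. CNOT8 was at -0.39 ± 0.07 and passed (limma adjusted p = 0.00399), while CNOT7 was at 0.08 ± 0.08 and did not, and the difference between them was not tested. BTG4, a family gene outside the set that was counted in this list, was at -0.11 ± 0.12 (SE, limma adjusted p = 0.504). Its untreated log2 mean of 2.8 lay under the 25th percentile of all genes (4.79). The count was 6 without untreated replicate 1 and 6 without untreated replicate 3. After cyclic loess 7 fell and 3 rose, so that some members of this list then moved up.

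Of 17 genes reported as HBP1 targets or partners 12 were measured, and of these 7 fell and 2 rose. Targets and partners were counted together, so the count and the median have no single expected direction. The median was -0.26, or -0.15 after cyclic loess and -0.08 with bin medians subtracted. The mismatch repair gene MLH3 (-0.54), the DNA methyltransferase gene DNMT1 (-0.58) and LEF1, a Wnt pathway factor (-0.47), fell. TCF7L2, a relative of LEF1, rose by 0.34, a call lost with the array medians set equal (adjusted p = 0.0520, limma) and without untreated replicate 1. CCND1, the cyclin D1 gene, was the other gene that rose (0.34; adjusted p = 0.118 in limma after cyclic loess, the call being lost without 5 of the 6 arrays in turn), and its untreated log2 mean of 5.92 lay under the median of all genes. EZH2, a histone methyltransferase gene, fell (-0.31), a call lost after cyclic loess and without untreated replicate 2 or 3, while MYCN was at 0.11 and CDKN1A at -0.20 and neither passed. CCND1, EZH2, MYCN and CDKN1A were named after their values were seen. The count of 9 became 5 after cyclic loess and 4 without untreated replicate 1, 2 or 3.

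Around CREBRF, 8 of 14 CREB3 factors and unfolded-protein genes fell and 0 rose in limma, with 8 lower and 2 higher at an unadjusted p under 0.05. The median was -0.32, or -0.20 after cyclic loess and -0.12 with bin medians subtracted. HERPUD1, an endoplasmic reticulum gene induced by unfolded proteins, went from 11.70 ± 0.04 to 10.71 ± 0.10 (SD, n = 3 each), a difference of -0.99 ± 0.08 (SE, adjusted p = 6.86e-05, limma). The chaperone genes DNAJB9 and HSPA5 (-0.75 and -0.57) and CREB3L4 (-0.75) also fell. CREB3 itself, named after its value was seen, was at -0.03 ± 0.09 (SE, limma adjusted p = 0.799). After cyclic loess 7 fell and 2 rose.

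The relatives of TSC22D3 (-1.33), named after their values were seen, were TSC22D1 at 0.09, TSC22D2 at 0.06 and TSC22D4 at 0.08, with SEs of 0.08 to 0.10. None of these 3 passed in limma, and their unadjusted p-values were 0.331, 0.416 and 0.486. A list of 14 measured genes joined TSC22 relatives and partners, the glucocorticoid receptor gene NR3C1 and glucocorticoid-induced genes. In it 3 rose and 2 fell, with a median of 0.08, or 0.14 after cyclic loess and 0.17 with bin medians subtracted. NR3C1, named after its value was seen, fell (-0.24), a call lost after cyclic loess and without any 1 untreated replicate. The phosphatase gene DUSP1 fell by 0.65, while NRBP1, a TSC22 partner, rose by 0.42 and the transcription factor genes KLF9 and ZBTB16 by 0.45 and 0.23. KLF9 lost its call after cyclic loess (adjusted p = 0.0567, limma) and without untreated replicate 2 or 3. ZBTB16 lost its call under several settings, cyclic loess (0.11) among them. The untreated log2 means of KLF9 and ZBTB16, 5.32 and 5.35, lay under the median of all genes (6.33). The count of 5 became 3 without untreated replicate 1, and 2 without untreated replicate 2 or 3.

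CDK inhibitors and other growth-arrest genes went both ways. Of 19, 5 fell and 4 rose, with a median of 0.06 that turned to -0.02 under equal array medians and to -0.01 with bin medians subtracted. PDCD4, a translation inhibitor (-0.58), the cyclin gene CCNG2 (-0.55), the MAX partner MXI1 (-0.53) and GADD45B (-0.48) fell. The p53-induced gene TP53INP1 (0.67), the CDK inhibitor gene CDKN1C (0.50), CCNG1 (0.41) and GAS1 (0.34) rose, and MXD1 also fell (-0.51), all chosen for mention with their values known. GAS1 lost its call after cyclic loess and without untreated replicate 2, and its untreated log2 mean of 5.68 lay under the median of all genes. Of lymphocyte quiescence genes, 5 of 18 rose and 1 fell (median 0.16, with or without bin medians subtracted). SESN3, a growth-restraining sestrin, went from 8.41 ± 0.15 to 9.64 ± 0.07 (SD, n = 3 each), a difference of 1.23 ± 0.09 (SE, adjusted p = 5.28e-05, limma). SLFN5, a Schlafen gene, rose by 1.12, the RNA-decay factor gene ZFP36L1 by 0.89 and PIK3IP1, an inhibitor of PI3 kinase, by 0.54. TXNIP, named after its value was seen, was the gene that fell (-0.21), a call lost when any 1 of the 6 arrays was left out.

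**Figure D4:**
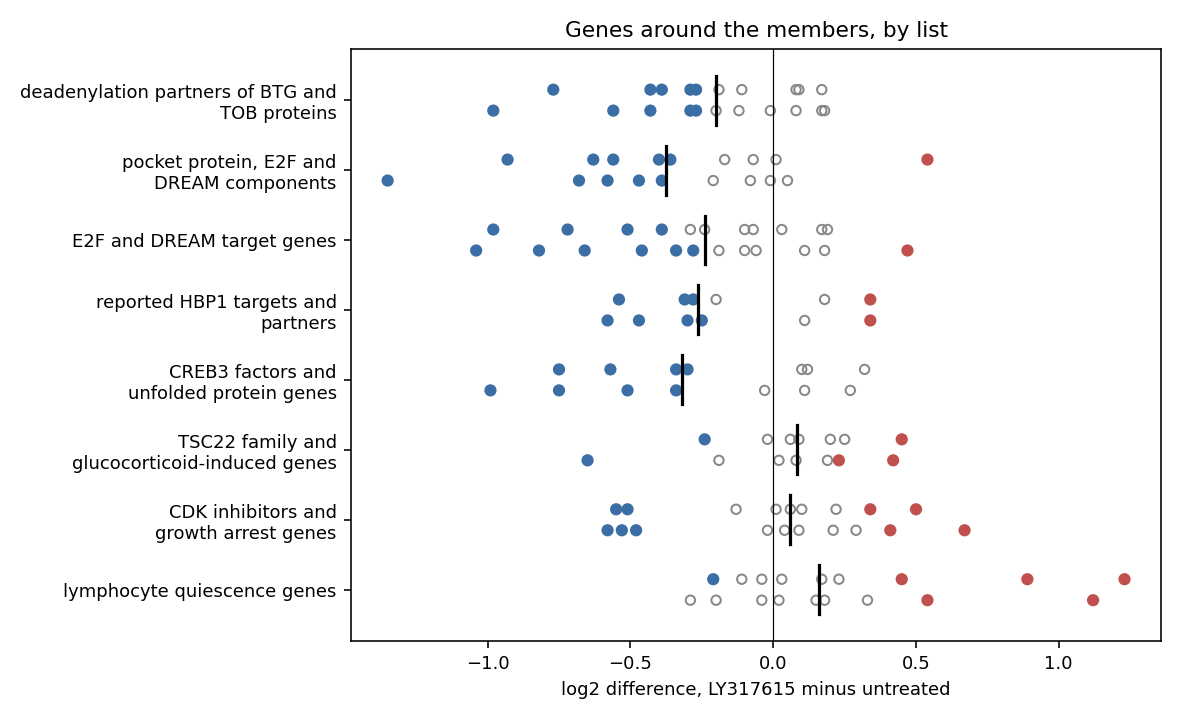
Log2 difference, LY317615 minus untreated, of each measured gene in the 8 lists; filled points passed an adjusted p of 0.05 in limma (blue lower, red higher), open points did not, and black bars are list medians. Medians run from -0.37 for pocket protein, E2F and DREAM components to 0.16 for quiescence genes with all 6 arrays; without treated replicate 3 the first was -0.28 and the CREB3 list was lower, at -0.30.

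The B-cell label was checked against markers. The 7 measured B-cell markers had untreated log2 means of 9.40 to 11.50, above the 75th percentile of all genes (8.39). T-cell and myeloid markers lay at 3.33 to 5.19, below the median of all genes (6.33). NK-cell markers lay at 2.87 to 6.82 and stromal or epithelial markers at 2.88 to 7.11. Summed intensity of the B-cell markers was 11530 to 12010 in untreated and 8448 to 9292 in treated arrays, 5 of 7 being called lower, while that of 6 myeloid markers was 159.1 to 163.8 and 197.6 to 233.9, 3 being called higher. T-cell markers summed to 135.6 to 145.3 and 152.8 to 183.6 (1 of 6 called higher), NK-cell markers to 251.5 to 280.7 and 233.8 to 265.6 (1 of 5 called lower), and stromal or epithelial markers to 365.7 to 387.8 and 458.4 to 496.0 (2 of 6 higher, 1 lower). By intensity, the median log2 difference of all genes was -0.21 and -0.14 in the 2 brightest bins. It was 0.06, 0.15 and 0.11 in bins 1 to 3, the dimmer ones. The marker sums were not corrected for this. The part of the markers in the results above was not tested.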

How the data were processed

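The deposited table gives linear-scale intensities of 33297 probe sets on each array. RMA, Affymetrix Expression Console and GCOS 1.4 are named in the submitters' processing notes, and their order is not given in the sources used here. Log2 was taken of the intensities with no constant added, and no further scaling was applied. Probe sets with 1 gene symbol (19460) were kept, 1754 with several and 12083 with none being left out, and the brightest probe set per gene gave 18417 genes. No detection calls were used, and the number of arrays limits the precision. A linear model with moderated variance was fitted to the 6 arrays (limma 3.58.1 in R 4.3.3), two-sided, and p-values were adjusted over all genes by Benjamini-Hochberg, with calls under 0.05. The code was tested on simulated data.

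The members and lists were chosen with earlier results of these data known. Named genes were the members, up to 4 called genes per list by smallest adjusted p, and the 5 nearest profiles to HBP1 and CREBRF, except where said. Alternatives were a replicate block, an intensity trend in the variance prior, array weights, equal array medians, cyclic loess, a filter on the dimmest 30% of genes, averaged probe sets per gene, and each array left out in turn. Python 3.11.15 with pandas 2.3.3 and matplotlib 3.10.9 made the tables and plots.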

Additional observations from a re-analysis of the deposited data

How the results depend on the processing

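Of 117 member values under an alternative, 101 stayed within 1 SD and kept their sign and 16 did not. There were 0 reversals among members called in limma. The replicate block, the variance trend, the dim-gene filter and averaged probe sets could not change a member's difference. Their values are among the 101. Every measured member moved by more than 1 SD under cyclic loess. Over the fits that each left out 1 array, HBP1 ran from -2.29 to -2.22, CREBRF from -2.10 to -1.91 and TSC22D3 from -1.36 to -1.30. With the array medians set equal they were at -2.34, -2.08 and -1.40. Of 117 counts of calls, 107 stayed within 1.5 times. The exceptions were the HBP1 targets and partners, 5 after cyclic loess and 4 to 8 with each array left out, the deadenylation list, 6 to 10 with each array left out, and the TSC22 and glucocorticoid list, 3 with the replicate number as a block and 2 to 5 with each array left out. Calls over all genes were 4609 to 6153 with each array left out and 5661 after cyclic loess. The replicate numbers were not treated as pairs: deviations from the group means correlated at -0.017, 0.093 and 0.066 for replicates 1, 2 and 3. With that block 6548 genes were called, against 6568 without it. Dim genes could not be told from background.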

Other observations

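The protein-coding neighbours of the 3 members with the largest falls were looked up after the data were seen. They differed by less than the members did. Picking the largest falls made that near certain, so nothing is read from it. Next to HBP1 on its chromosome, PRKAR2B was at 0.24 ± 0.10 (SE, adjusted p = 0.0804, limma) and COG5 at -0.39 ± 0.08 (adjusted p = 0.00471, limma), against -2.26 for HBP1. Next to CREBRF, ATP6V0E1 rose by 0.41 ± 0.07 (adjusted p = 0.00319, limma), and BNIP1 fell by 0.78 ± 0.13 (adjusted p = 0.00236, limma). PRPS1, next to TSC22D3, fell by 0.69 ± 0.08 (adjusted p = 0.000377, limma), and its other neighbour was not analysed here. Order along the chromosome was taken from RefSeq on GRCh38.p14.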
